A study of Mus musculus with 8 samples.

Results

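The genes described here are 10 that code for the sensors of endoplasmic reticulum (ER) stress and for the machinery that removes misfolded proteins from the ER. The sensors are Ern1 (IRE1), Atf6 and Eif2ak3 (PERK), Xbp1 is the factor that IRE1 acts through, and Derl1, Derl2, Derl3, Sel1l, Herpud1 and Edem1 belong to ER-associated degradation (ERAD). Members were all non-control probes whose gene name on the array was one of these 10. The 10 genes were chosen with earlier results of these data known, so their counts below are no independent support. They came to 16 of 39429 probes, and 14 of the 16 were well above background on at least 4 of the 8 arrays and were tested among 26076 probes in all. The samples were labelled as beta cells of the pancreas of C57BL/6 mice, 4 from animals on a high-fat diet and 4 from animals on a control chow diet. Each sample was a biological replicate with its own 1-colour Agilent array, and the age, the sex, the time on the diet and the way the cells were isolated are not given in the sources used here. Whether each sample came from its own animal is not stated, so p-values measure the spread between these samples.

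When unfolded proteins build up in the ER, IRE1 cuts the Xbp1 transcript so that an active factor is made, PERK phosphorylates the translation factor eIF2 alpha, and ATF6 moves to the Golgi and is cleaved into a transcription factor. XBP1 and ATF6 raise ER chaperones and ERAD genes through promoter elements called ERSE, ERSE-II and UPRE. In ERAD, EDEM1 directs misfolded glycoproteins to degradation, SEL1L holds the ubiquitin ligase HRD1 (Syvn1), the derlins help to move substrates out of the membrane and HERPUD1 organises the complex. Beta cells fold large amounts of proinsulin and are known to depend on this response.

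The promoters of Derl3 and Herpud1 are shown because the signals of these members, and of no other member, did not overlap between the diets. Of the 8 members with a window, they are also those whose window held a full ERSE or ERSE-II. Atf6 and Derl1 had no window and could not be searched. The ERSE is CCAAT and CCACG with 9 bases of any kind between them, and the ERSE-II is ATTGG and CCACG with 1 base between them. The windows run from 250 bases before to 50 bases after the annotated start, are taken from RefSeq on GRCm38.p6, and are printed 5′ to 3′ on the gene's strand. Capitals mark the match. That of Derl3 is an ERSE read on the opposite strand, from -156 to -138 of the start (chr10:75893148-75893447, plus strand), and that of Herpud1 is an ERSE-II from -52 to -42 (chr8:94386179-94386478, plus strand).
Derl3: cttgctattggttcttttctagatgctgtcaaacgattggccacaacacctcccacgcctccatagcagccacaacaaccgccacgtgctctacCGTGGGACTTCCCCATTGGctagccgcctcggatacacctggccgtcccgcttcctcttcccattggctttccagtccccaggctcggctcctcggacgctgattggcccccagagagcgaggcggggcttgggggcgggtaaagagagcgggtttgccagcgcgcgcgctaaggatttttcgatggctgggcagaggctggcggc
Herpud1: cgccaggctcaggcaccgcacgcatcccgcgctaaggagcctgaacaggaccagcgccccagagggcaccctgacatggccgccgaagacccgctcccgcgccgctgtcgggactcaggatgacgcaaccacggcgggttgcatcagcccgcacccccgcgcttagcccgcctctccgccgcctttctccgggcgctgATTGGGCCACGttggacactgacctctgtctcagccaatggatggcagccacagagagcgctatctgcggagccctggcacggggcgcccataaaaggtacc

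Both motifs were searched on both strands. The ERSE was in 39 of 32851 windows of this length (0.119%) and the ERSE-II in 12 (0.0365%), so that 51 windows (0.155%) held either. Of the 10 members, 8 had at least 1 window, with 9 windows in all, and no member window held the UPRE core TGACGTGG, which was in 222 of all windows (0.676%). The short site CCACG, which is part of the ERSE and the ERSE-II, was in windows of 6 members and in 32.8% of all windows. The box CCAAT, which overlaps both motifs, was also in windows of 6 members and in 37.4% of all windows. A match is a description of letters and does not show binding.

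Each array read the members through 60-base probes, whose positions the scanner files give on mm9. The opening 30 bases of the probes of Derl3, Herpud1 and Xbp1 show what was measured for the members on which the results below turn most.
Derl3: agccgtgtacagtggaggtaggtctgggac
Herpud1: tagcaggacttttctaggagagacttatgt
Xbp1: ttcttgctagtgtagcttctagaaggtgct
The Derl3 probe lies at chr10:75358503-75358562, the Herpud1 probe at chr8:96919117-96919176 and the Xbp1 probe at chr11:5425816-5425875, all on the plus strand. The Xbp1 probe starts at base 2066 of its transcript, and a total level is what it reports. The cutting of the Xbp1 transcript by IRE1, and the phosphorylation or cleavage of the sensors, were not measured.

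Each array had 43020 spots that were not controls, and 63.6% to 68.6% of them were well above background. The arrays lay on 2 slides, with 2 samples of each diet on each slide. On both slides the high-fat arrays sat at positions 2 and 4 and the control arrays at positions 1 and 3, so position and diet cannot be told apart. The insulin genes Ins1 and Ins2, which define beta cells, were well above background on all 8 arrays, and so were glucagon (Gcg), somatostatin (Sst) and the acinar elastase Cela3b, so the samples also held RNA of other pancreatic cells. Ins2 differed by 0.045 ± 0.17 (SE) on the log2 scale, a sign that turns with normexp background correction, on slide 2 alone and without control or high-fat replicate 1. In such mixed samples, fewer cells of a type and less RNA per cell cannot be told apart, and the members' levels are those of the whole mixture. Levels below are log2 signals relative to each array's 75th percentile, and differences are high-fat minus control. Mean levels in high-fat and control samples were 8.28 and 8.26 for Ins1, 7.76 and 7.92 for Gcg, and 6.84 and 7.23 for Sst.

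The question was whether the diets differed in these genes, and the data show small differences, mostly above 0, with Derl3 and Herpud1 standing out in size. Of the 14 tested probes 12 had a difference above 0 and 2 below 0, where 47.5% of all tested probes were above 0. The median difference was 0.17 over the member probes and -0.013 over all probes tested. With limma and Benjamini-Hochberg adjustment over all 26076 probes, 0 member probes passed an adjusted p of 0.05, and 0 of all probes did (0%), the smallest adjusted p over all probes being 0.154. Before adjustment, a p under 0.05 was reached by 2 member probes that were higher and 0 that were lower, against 607 (2.33%) and 901 (3.46%) of all probes. The groups did not overlap for 2 member probes, against 1.55% of the probes with all 8 values for which every high-fat sample lay above every control sample and 1.77% for which every one lay below. With the planned normexp background correction 3 of 14 probes were above 0. High-fat replicate 2 had 7 spots of high local background, and with such spots left out 12 probes were above 0.

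**Figure D1:**
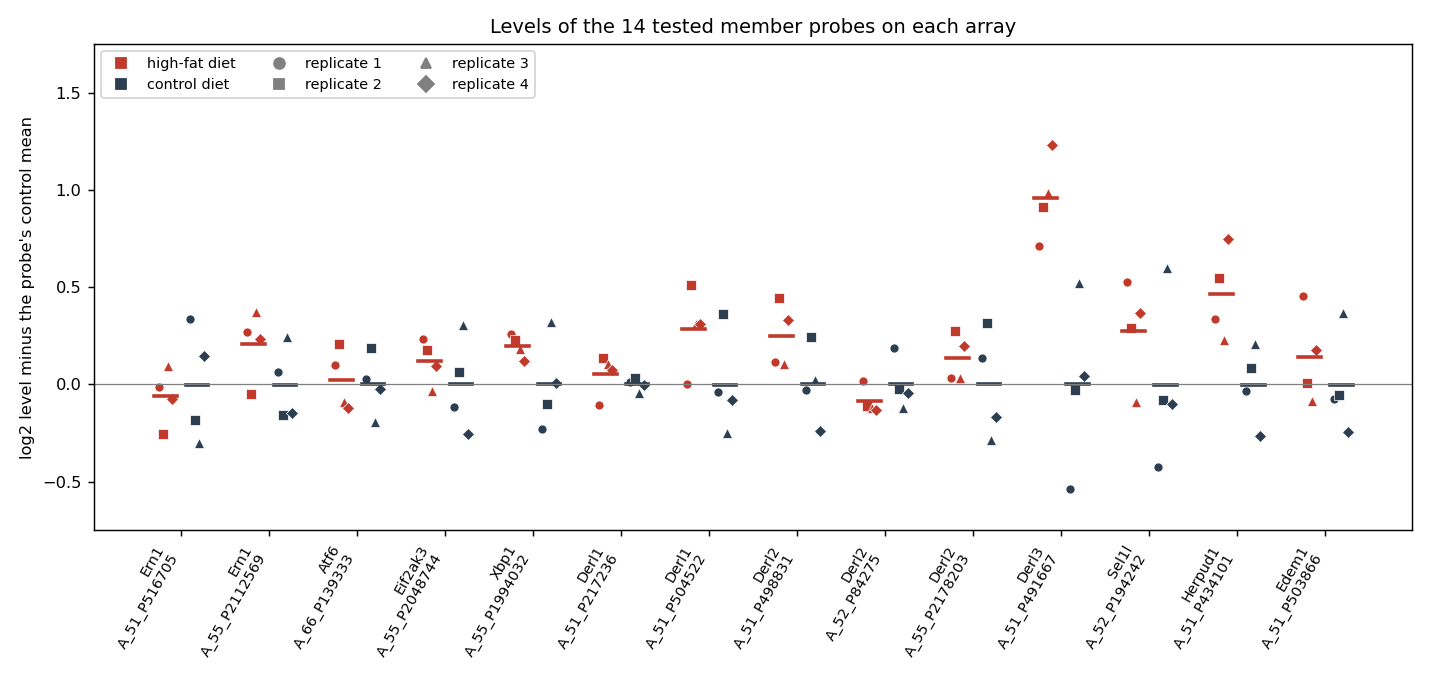
Log2 levels of the 14 tested member probes on each array (vertical axis, relative to the probe's control mean; marker shapes are replicates, bars are group means, high-fat in red and control in dark blue). The high-fat samples lie above all control samples for Derl3 and Herpud1 and overlap with them for the other 12 probes.

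Derl3, a derlin of the retrotranslocation machinery, had levels of 3.27, 3.47, 3.54 and 3.79 in high-fat samples, against 2.02, 2.53, 3.08 and 2.60 in control samples (replicates 1 to 4 in each). Every high-fat sample lay above every control sample, and the nearest pair was high-fat replicate 1 and control replicate 3. The mean was 3.52 ± 0.22 in high-fat and 2.56 ± 0.43 in control samples (SD, n = 4 each), a 1.95-fold higher signal. The log2 difference was 0.96 ± 0.22 (SE), and limma gave an unadjusted p of 0.00225 and an adjusted p of 0.50. It ranked 155 of 26076 probes from the highest difference down, and 0.591% of all probes were at least as far above 0. Differences of that size below 0 are not in this count. The Derl3 difference was 1.09 on slide 1 and 0.83 on slide 2. Leaving out 1 sample moved it between 0.78, without control replicate 1, and 1.13, without control replicate 3. With the planned normexp correction it came to 0.48.

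Herpud1, a membrane protein of the ER that is itself a stress-induced ERAD component, had levels of 4.69, 4.90, 4.58 and 5.10 in high-fat samples, against 4.32, 4.44, 4.56 and 4.09 in control samples. The groups did not overlap, but high-fat replicate 3 and control replicate 3 were only a few hundredths apart. Means were 4.82 ± 0.23 in high-fat and 4.35 ± 0.20 in control samples (SD, n = 4 each), 1.38-fold higher. The log2 difference was 0.46 ± 0.15 (SE), with an adjusted p of 0.759 by limma, and 3.39% of all probes were at least as far above 0. Slide 1 gave 0.41 and slide 2 gave 0.52. With the planned normexp correction it was 0.047, and with spots of high local background left out it was 0.46.

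The tested probes of the 3 stress sensors had differences between -0.061 and 0.21. Atf6, whose probe lies at chr1:172635311-172635370 on the minus strand, had levels of 0.45, 0.56, 0.26 and 0.23 in high-fat samples, against 0.38, 0.54, 0.16 and 0.33 in control samples. The samples of the diets were interleaved, and the log2 difference was 0.023 ± 0.13 (SE; limma adjusted p = 0.986). Eif2ak3, read by a probe at chr6:70855152-70855211 on the plus strand, had levels of 1.45, 1.39, 1.18 and 1.31 in high-fat samples, against 1.1, 1.28, 1.52 and 0.96 in control samples. Control replicate 3 was the highest of all 8 samples and control replicate 4 the lowest, so the high-fat values lay within the control range. The difference was 0.12 ± 0.14 (SE), with 0.23 on slide 1 and 0.0047 on slide 2.

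Ern1, the IRE1 kinase and nuclease, had 4 probes, and they did not give 1 direction. The probe of the RefSeq transcript, at chr11:106258948-106259007 on the minus strand, had levels of 1.65, 1.41, 1.76 and 1.59 in high-fat samples, against 2.00, 1.48, 1.36 and 1.81 in control samples. The high-fat samples lay inside the control range, the difference was -0.061 ± 0.16 (SE), and its sign differed between slide 1 (-0.21) and slide 2 (0.085). A dimmer probe for an Ensembl transcript of Ern1 (A_55_P2112569, chr11:106275124-106275183) differed by 0.21 ± 0.14 (SE; limma adjusted p = 0.921), and that difference kept its sign on both slides. The other two probes, for further Ensembl transcripts, were well above background on 2 arrays (A_55_P2112560, 1 of each diet) and on 1 control array (A_55_P2112564), so they were not tested.

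Xbp1 had levels of 5.81, 5.78, 5.73 and 5.67 in high-fat samples, against 5.32, 5.45, 5.87 and 5.56 in control samples. The high-fat samples lay close together, with an SD of 0.063 against 0.23 in the control samples, and control replicate 3 was above all of them. The difference was 0.20 ± 0.13 (SE), with a limma adjusted p of 0.921. It was 0.41 on slide 1 and -0.012 on slide 2. Leaving out 1 sample moved it between 0.13, without control replicate 1, and 0.31, without control replicate 3.

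The probes of the other derlins had differences between -0.087 and 0.28. Derl2, which like Derl1 spans the ER membrane, had 3 probes with differences of 0.25 ± 0.14, 0.14 ± 0.15 and -0.087 ± 0.11 (SE). The probe with the first of these values, at chr11:70823456-70823515 on the minus strand, had levels of 4.25, 4.58, 4.24 and 4.47 in high-fat samples, against 4.11, 4.38, 4.16 and 3.90 in control samples. Of the high-fat samples 2 lay above all control samples. The probe below 0 starts farthest along the transcript, at base 3503, and it was below 0 on both slides. Derl1 had a probe with a difference of 0.28 ± 0.16 (SE), 0.098 on slide 1 and 0.47 on slide 2, and a probe farther along the same transcript with 0.052 ± 0.098 (SE). Limma adjusted p lay between 0.908 and 0.961 over these 5 probes, and the probes of each gene thus disagreed in size or sign.

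Sel1l, the partner of the HRD1 ligase, had levels of 1.84, 1.60, 1.22 and 1.68 in high-fat samples, against 0.89, 1.23, 1.91 and 1.21 in control samples. Control replicate 3 was again the highest sample of all. The difference was 0.28 ± 0.23 (SE; limma adjusted p = 0.924), 0.66 on slide 1 and -0.11 on slide 2. Leaving out 1 sample moved it between 0.13, without control replicate 1, and 0.48, without control replicate 3. Edem1, a relative of the ER mannosidases, had levels of 1.73, 1.28, 1.19 and 1.45 in high-fat samples, against 1.20, 1.22, 1.64 and 1.03 in control samples. Its difference was 0.14 ± 0.17 (SE), 0.30 on slide 1 and -0.019 on slide 2. The Sel1l probe lies at chr12:93044963-93045022 on the minus strand and the Edem1 probe at chr6:108808920-108808979 on the plus strand.

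**Figure D2:**
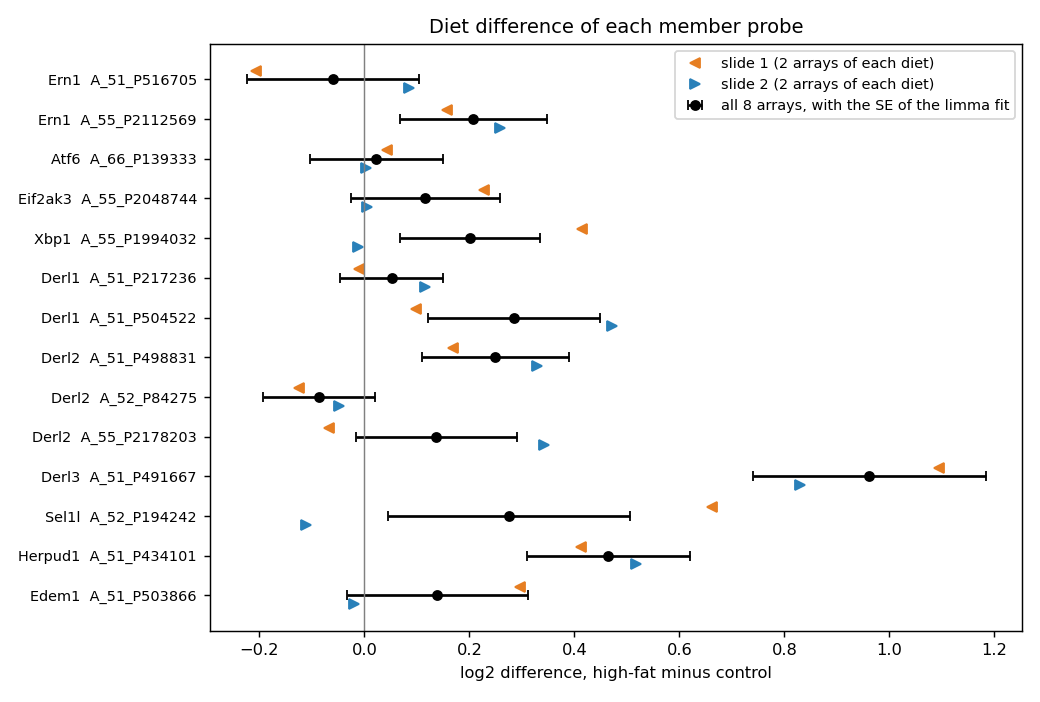
Log2 difference, high-fat minus control, of each tested member probe (horizontal axis; black points with the SE of the limma fit, orange triangles for slide 1 and blue triangles for slide 2). Derl3 and Herpud1 have the rightmost black points and are above 0 on both slides, while Xbp1, Sel1l and Edem1 are above 0 on slide 1 and below 0 on slide 2.

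By slide, 7 of the 14 probes were above 0 on both slides, 1 was below 0 on both and 6 had opposite signs. Of all tested probes 22.7% were above 0 on both slides and 47.4% had opposite signs. Within each slide 10 of the 14 member probes were above 0, against 50.7% of all probes on slide 1 and 42.1% on slide 2.

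The members did not share 1 order of the samples. With 1 probe a gene, that with the highest mean, control replicate 3 was the highest control sample for Eif2ak3, Xbp1, Derl3, Sel1l, Herpud1 and Edem1, and the lowest for Ern1, Atf6 and Derl1. Control replicate 4 was the lowest control sample for Eif2ak3, Derl2, Herpud1 and Edem1. High-fat replicate 3 was the lowest high-fat sample for Eif2ak3, Derl2, Sel1l, Herpud1 and Edem1. The mean deviation of the 10 genes from their own means was 0.14, 0.15, 0.018 and 0.18 in high-fat replicates 1 to 4, against -0.23, -0.10, 0.059 and -0.21 in control replicates 1 to 4. Without Derl3 and Herpud1 it was 0.14, 0.093, -0.040 and 0.060 in high-fat samples, against -0.12, -0.048, 0.072 and -0.15 in control samples, and the diets overlapped in both versions. The smallest and the largest scaling value also fell on control samples: the 75th percentile was 333.6 intensity units in control replicate 3 and 710.8 in control replicate 1. The part of this in the differences was not tested.

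**Figure D3:**
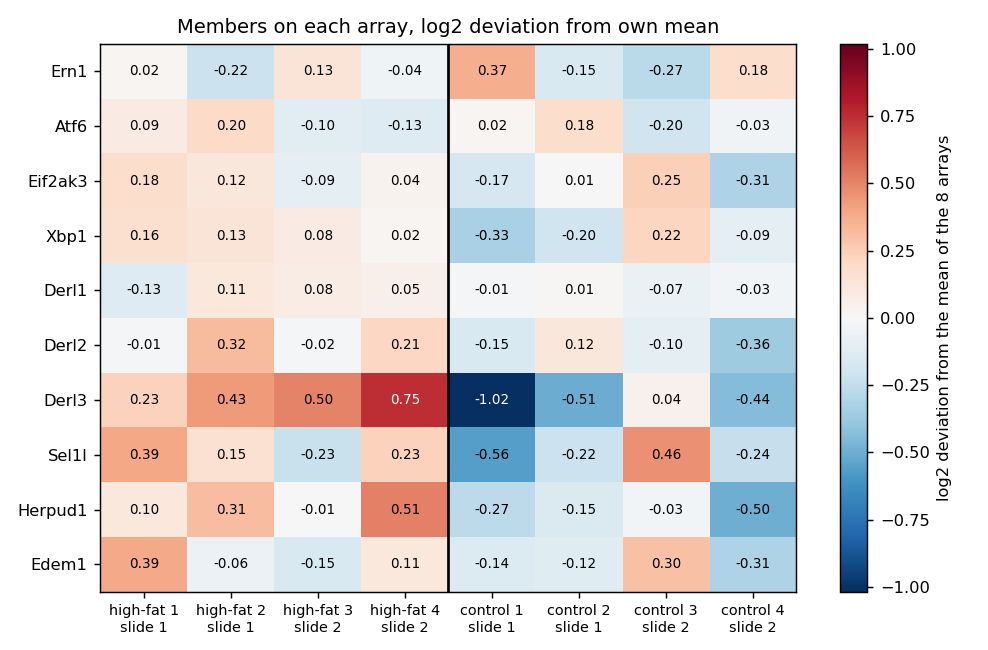
Log2 deviation of each member from its own mean over the 8 arrays (colour and printed value; 1 probe a gene, genes listed by role, high-fat columns left of control columns). Derl3 runs between 0.23 and 0.75 in high-fat columns and between -1.02 and 0.04 in control columns, and control replicate 3 stands above the other control columns for 6 of the 10 genes.

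Derl3 and Xbp1 are also strongly used in acinar and plasma cells, whose markers were therefore read beside them. Summed over 26 acinar marker genes, all above background, the log2 level was 13.03, 12.67, 12.16 and 12.38 in high-fat samples, against 11.88, 12.49, 12.93 and 12.42 in control samples. The diets overlapped, 24 of the 26 genes had a difference above 0, and none reached an unadjusted p of 0.05 in limma. On slide 1 alone the acinar enzymes Cela3b and Cpa1 differed by 0.93 and 0.55, beside 1.09 for Derl3 and 0.41 for Xbp1. There 26 of the 26 acinar markers were above 0, with a median of 0.66 and 8 at an unadjusted p under 0.05 in limma. On slide 2 alone Cela3b and Cpa1 differed by -0.33 and -0.36, beside 0.83 for Derl3 and -0.012 for Xbp1. There 1 of the 26 markers was above 0, with a median of -0.39. Sel1l and Edem1, like Xbp1, were above 0 on slide 1 (0.66 and 0.30) and below 0 on slide 2 (-0.11 and -0.019). Probes of Ern1, Derl1 and Derl2 turned the other way, and 7 of the 14 member probes were above 0 on both slides. The acinar factor Bhlha15 had levels of 3.96, 3.83, 3.82 and 3.92 in high-fat samples, against 3.43, 3.72, 4.04 and 3.40 in control samples, with control replicate 3 highest and control replicates 1 and 4 lowest. All 8 plasma and B cell markers tested had differences below 0, with a summed level of -0.63 to 2.35 in high-fat and 1.21 to 2.85 in control samples. Mzb1, a plasma cell protein, differed by -0.83 ± 0.32 (SE). Of 10 beta cell markers 5 lay above 0 and 5 below, with a median difference of -0.078. Before adjustment, G6pc2 was higher and Slc2a2 lower at p under 0.05 in limma. Of 6 alpha cell markers 5 lay below 0, 4 of them at an unadjusted p under 0.05. Of 6 delta and PP cell markers 6 lay below 0, 4 of them at that p. The part of other cell types in the members' differences was not tested.

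Other ERAD genes outside the members were read from a list of 36 measured genes. Of these 27 had a difference above 0, and before adjustment 3 were higher and 0 lower at p under 0.05, while 0 passed the adjusted threshold in limma. The median was 0.090, against -0.0014 over all genes with 1 probe each, of which 49.7% were above 0 and 2.43% higher and 3.32% lower at that p. The median was 0.028 in the authors' deposited value table and turned to -0.15 with the planned normexp correction. With that correction and spots of high local background left out it was 0.087, and 26 of the 36 were above 0. Syvn1, the HRD1 ligase, had levels of 4.89, 5.0, 4.84 and 5.0 in high-fat samples, against 4.66, 4.64, 4.62 and 4.62 in control samples. Its groups did not overlap, and the difference was 0.30 ± 0.093 (SE) on the log2 scale, with 0.30 on each slide. The lectin Os9 differed by 0.36 ± 0.13 and the selenoprotein Selk by 0.31 ± 0.11 (SE), also with no overlap between the diets. Edem3, a relative of Edem1, differed by 0.25 ± 0.13 (SE). Of these, Syvn1, Os9 and Selk turn sign with the planned normexp correction, and with no other setting tried.

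Genes of stress sensing and signalling lay on both sides of 0. Of 28 measured genes 17 lay above 0 and 11 below, where 49.7% of all genes with 1 probe each were above 0. In limma, Txnip was the 1 higher gene and Creb3l4 the 1 lower gene at p under 0.05 before adjustment. Over all genes 2.43% were higher and 3.32% lower at that p. The median was 0.031, against -0.0014 over all genes. It turned to -0.17 with the planned normexp correction and to -0.0063 on slide 1 alone. With that correction and spots of high local background left out it was 0.023, where the median of all probes was 0.024. Txnip, the thioredoxin-interacting protein, had levels of 3.55, 3.26, 2.98 and 3.89 in high-fat samples, against 3.30, 2.86, 2.83 and 2.55 in control samples, and the diets overlapped. Creb3l4, a membrane-bound factor related to ATF6, differed by -0.60 ± 0.19 (SE), with a sign that turns with the planned normexp correction alone. Dnajc3, an ER cochaperone also known as an inhibitor of PERK, differed by 0.33 ± 0.16 (SE) and turns likewise. Among 38 ER chaperone and translocation genes, a list that holds known XBP1 and ATF6 targets, 38 had a difference above 0. The share over all genes was 49.7%. The median of the list was 0.29, against -0.0014 over all genes. Before adjustment 14 were higher and 0 lower at p under 0.05 in limma, against 2.43% and 3.32% of all genes, but 0 passed the adjusted threshold. With the planned normexp correction 17 of the 38 were above 0 and the median was -0.084. With spots of high local background left out 37 were above 0. The most marked by p were Ssr4, a translocon-associated subunit, at 0.56 ± 0.12, the cochaperone Dnajb11 at 0.59 ± 0.16, the signal peptidase subunit Sec11c at 0.64 ± 0.17 and the KDEL receptor Kdelr3 at 0.72 ± 0.22 (SE). That this list lay above 0 was known from earlier results of these data and is no independent support.

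**Figure D4:**
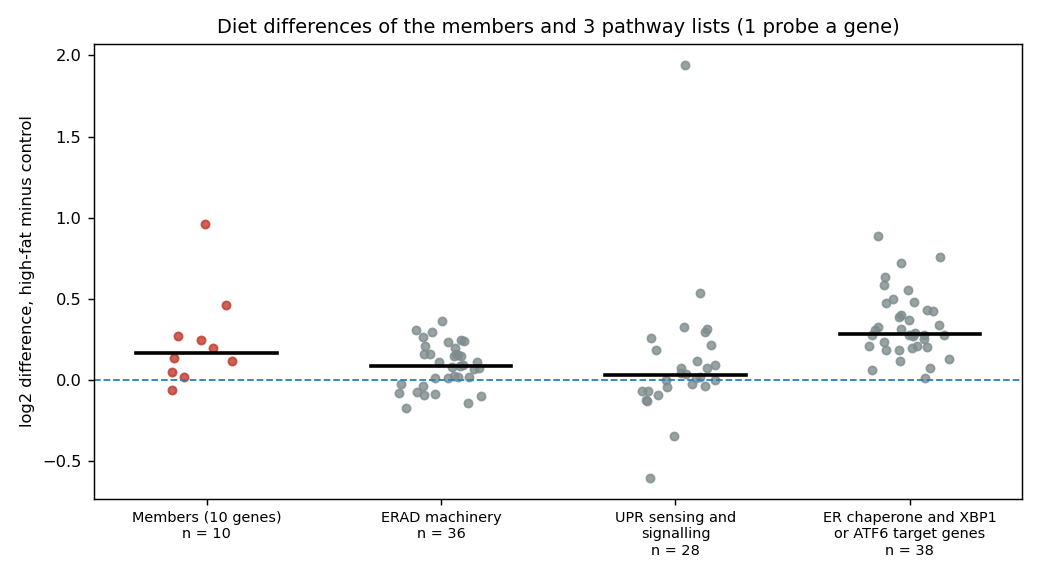
Log2 difference, high-fat minus control, of the 10 members (red, 1 probe a gene) and of the genes of 3 pathway lists (grey); black bars are medians and the dashed line is the median of all genes. The bars stand at 0.17 for the members, 0.090 for ERAD machinery, 0.031 for sensing and signalling and 0.29 for ER chaperone and target genes.

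The genes of the whole array whose windows held an ERSE or ERSE-II were read in the same way as Derl3 and Herpud1. Leaving out the members, 27 such genes were tested, 19 of them had a difference above 0, and before adjustment 8 were higher and 0 lower at p under 0.05. Over all genes with 1 probe each, 49.7% were above 0, and 2.43% were higher and 3.32% lower at that p. The median difference of the 27 genes was 0.20, against -0.0014 over all genes with 1 probe each. It was 0.060 with the planned normexp correction, under which 16 of the 27 were above 0. That lies below the median of all probes with that correction, which was 0.19. These genes were not read with spots of high local background left out. The 8 genes higher at that p were Creld2, Dnajb11, Calr, Krtcap2, Nucb1, Hsp90b1, Syvn1 and Pdia6. Several of these are on the lists above, so the counts are not independent of those lists. Of 121 tested genes with the UPRE core, 67 had a difference above 0, with a median of 0.032, and 8 were higher and 1 lower at that p.

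The genes most like the members across the samples were found by Pearson correlation over the 8 arrays after centring on the slide means, among 19864 genes. For the mean of the 10 members they were Tmem219 (r = 0.99), Serpina6 (0.99, a dim probe), Mgll (0.98) and a probe without a gene name (0.99). For Derl3 they were 1110008F13Rik (0.99), Wbp1 (0.99), Cdk18 (0.99) and another unnamed probe (0.99). The arrays share slides and scaling, and the values are a description. Mgll, the monoglyceride lipase, had levels of 1.49, 1.38, 1.30 and 1.54 in high-fat samples, against 0.84, 0.95, 1.35 and 0.96 in control samples. Control replicate 3 was its highest control sample, as for 6 of the 10 members. Mgll was picked for its likeness to the members, so this was fixed by the choice. Cdk18, a cyclin-dependent kinase, differed by 0.50 ± 0.12 (SE; limma adjusted p = 0.559), and its diets did not overlap.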

How the data were processed

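RNA of 8 samples was measured on 1-colour Agilent arrays. Per the file headers and the submitters' processing notes, the scanner files, in intensity units, were made by Agilent Feature Extraction 11.5.1.1, which subtracted background and removed spatial trends. The authors' deposited value table holds log2 values; the notes name limma, and no source used here gives their normalization. From the deposited intensity (processed signal), log2 was taken and each array's 75th percentile subtracted. Control spots were dropped, as were the outlier spots, which numbered 125 to 228 on an array, and spots of a probe were averaged. Probes well above background on at least 4 arrays were fitted with limma 3.58.1 (R 4.3.3; lmFit, eBayes), with Benjamini-Hochberg adjustment over all probes. A probe's difference had a median SE of 0.17 (log2), and the number of arrays limits the precision. The procedure was tested on simulated data. Python 3.11.15, pandas 2.3.3 and matplotlib 3.10.9 were used.

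The members and lists were chosen with earlier results of these data known. Genes named were all members, up to 4 genes a list by unadjusted p, the 4 most alike genes, and fixed hormone and marker genes. Alternatives tried were normexp (offset 50) for the background, with and without spots of local background above 4 times their array's median, other scalings, the deposited table, other filters, 1 probe a gene, a trended robust eBayes, a block for slide or for replicate number, the slides singly, and the samples left out in turn.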

Additional observations from a re-analysis of the deposited data

Results flagged for a closer look

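Of 90 groups of 4 samples examined over the 45 genes and probes named, 2 had a sample far from the others, where chance gives about 1 in 20. Neither belonged to a member. Edem3 stood at 0.40 in control replicate 3, while the other control samples lay between -0.05 and -0.02. Sec11c stood at 2.70 in control replicate 1, while the other control samples lay between 2.94 and 2.95.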

How the results depend on the processing

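Under 21 alternatives, 13 of them other than leaving out 1 sample, 269 of 290 member values kept their sign and 21 did not. The other filters, 1 probe a gene, the trended eBayes and the blocks leave a member's difference as it is. The signs under these were fixed in advance. No member passed the adjusted threshold under any of the 21 alternatives. The differences of Derl3 (0.48 to 1.13, adjusted p from 0.247 to 0.960) and Herpud1 (0.047 to 0.54, adjusted p from 0.390 to 1.00) stayed above 0. The lowest value of each came with the planned normexp correction, where the median of all probes was 0.19. There Herpud1 lay below that median and Derl3 above it. The planned normexp correction took the median of the member probes to -0.14 and the count at an unadjusted p under 0.05 to 0. It reversed Atf6 (-0.11), Eif2ak3 (-0.16), Xbp1 (-0.25), Derl1 (-0.34 and -0.11), Derl2 (-0.23 and -0.27), Sel1l (-0.067) and Edem1 (-0.087). It moved the median of all probes to 0.19, and without spots of high local background that median was 0.024 and no member turned. Median scaling moved the median of all probes to 0.064 and turned Ern1 to 0.016. In the authors' deposited value table the member median was 0.091. Slide 1 alone reversed probes of Derl1 (-0.011) and Derl2 (-0.067), and slide 2 alone reversed Ern1 (0.085), Xbp1 (-0.012), Sel1l (-0.11) and Edem1 (-0.019). Without 1 sample, Ern1 ranged from -0.16 to 0.052, Atf6 from -0.042 to 0.085 and the member median from 0.12 to 0.24. The count of member probes at an unadjusted p under 0.05 then ranged from 2 to 4: without control replicate 2, Derl1 and Derl2 were added (0.41 and 0.33), and without control replicate 3, Xbp1 and Sel1l (0.31 and 0.48). Over all probes, 1 passed the adjusted threshold in the deposited table and 1 with a trended, robust eBayes, and neither was a member. Same-numbered samples lay on the same slide, and their deviations from the group means correlated at 0.24, 0.39, -0.024 and 0.30 for numbers 1 to 4; not every pair was above 0.1, and the labels give the numbers no meaning beyond replicate, so the samples were not treated as paired. A replicate block cannot change the difference of a probe measured on every array, so the member median stayed at 0.17. With this block the member count was 2 and the count over all probes was 0. Beyond leaving out spots of high local background, the cause of the changes between settings was not tested.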

Other observations

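Before scaling, the Derl3 spot read 3516, 5222, 5338 and 5463 intensity units on the high-fat arrays, against 2885, 2735, 2813 and 2700 on the control arrays. The control values lay closer together before scaling than after it, where they ran from 2.02 to 3.08 on the log2 scale. Herpud1 read 9400, 14040, 11020 and 13500 units on the high-fat arrays, against 14190, 10290, 7873 and 7586 on the control arrays, so the diets overlapped before scaling and did not after it.

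Creb3l3, a membrane-bound factor of the ATF6 kind, spanned a wide range within each diet. Its log2 levels were -3.51, 0.39, -3.08 and 1.11 in high-fat samples, against -4.11, -4.51, -3.65 and -0.59 in control samples, and its difference was 1.94 ± 1.26 (SE). Serpina6, the corticosteroid-binding globulin, had levels of -3.91, -4.46, -4.31 and -3.26 in high-fat samples, against -6.95, -6.33, -4.06 and -6.17 in control samples. Control replicate 3 stood with the high-fat samples, but Serpina6 was picked for its likeness to the members. Its lower levels were near background, as the Ern1 probes too dim to test had control means of -5.27 and -5.80. The Serpina6 difference ran from 0.083 to 2.50 over the settings tried. The delta cell hormone Sst differed by -0.39 ± 0.10 (SE) and Gcg by -0.17 ± 0.16 (SE), the second of which was 0.099 on slide 1. The B cell gene Igj, the joining chain of immunoglobulins, ran from -3.11 to 1.33 in high-fat samples and from 0.07 to 2.32 in control samples.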
